A study of Arabidopsis thaliana with 24 samples.

Results

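Transcripts of 9 genes for late embryogenesis abundant (LEA) proteins were followed through silique and seed development of Arabidopsis thaliana, accession Col-0. The genes were listed by name, with earlier results of these arrays known: LEA4-5 (AT5G06760), AtLEA4-1 (AT1G32560), AT3G15670, AT3G17520, AT4G21020, AT5G44310, AT3G53040, AT2G42560 and AT3G02480. Each was read by exactly 1 probe set that the annotation gives to a single gene, so that they are 9 of the 13286 genes read in this way on the Affymetrix ATH1 array, and 9 of its 22810 probe sets. All 9 were listed under the LEA_4 family. AtLEA4-1 and LEA4-5 take the 4 in their names from an older grouping of LEA proteins, in which group 4 corresponds to the Pfam family LEA_1 and not to LEA_4. The set therefore joins 7 genes of the LEA_4 family with 2 of group 4, and the results are given in that order.

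LEA proteins are small to medium, very hydrophilic proteins that stay soluble on heating and are largely unfolded in water. They build up in the embryo late in seed development, before and during drying, and are known for protecting enzymes and membranes when water is lost. Proteins of the LEA_4 family fold into amphipathic helices as they dry. Group 4 proteins of Arabidopsis are known both from dry seeds and from vegetative tissues under drought, where loss of these genes lowers tolerance. In the embryo many LEA genes are switched on by abscisic acid through transcription factors of seed maturation, among them bZIP proteins.

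RNA came from whole siliques with the seeds inside at stages 3, 4 and 5 and from seeds freed of the siliques at stages 6, 7, 8, 9 and 10. These 8 groups held 3 arrays each, 24 in all. The groups share the accession and differ in stage and, between stages 5 and 6, in material; a growth regime (long days on soil) is labelled for stage 3 alone. The titles carry the letters D, E and F in stages 4 and 5, A, B and D in stage 10 and A, B and C elsewhere, and what a letter marks is not labelled. Whether the 3 samples of a group were grown or harvested apart is not labelled. The p-values therefore cover the scatter among these samples only, and that scatter may be technical.

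Several other measures moved with the stages. Summed over 7 seed reserve genes (storage proteins and oleosins), the signal per array was 46.3 to 75.2 in siliques stage 3, 13232 to 13600.0 in siliques stage 5, 25158 to 26675 in seeds stage 6 and 45781 to 52070.2 in seeds stage 10. Over 4 silique wall genes the sum was 375 to 443, 456 to 467, 328 to 349 and 266 to 315 in the same groups, and none of the 4 was at 0. Of these ALC, a regulator of the valve margin, averaged 36.6 ± 4.86 in seeds stage 6, against 161 ± 4.28 in siliques stage 5 (SD, n = 3 each), whereas YAB3 averaged 112 ± 1.17 in these seeds and 59.3 ± 10.4 in these siliques. Over 7 photosynthesis genes the sum was 16950.2 to 17311, 12919.6 to 13892, 8389 to 9447 and 989 to 1034. The 7 reserve genes did not all move alike: in seeds stage 10 against 6, 4 were called higher, 1 lower and 2 not called. The oleosin gene OLEO3 averaged 4552 ± 178 in seeds stage 6 and 1370 ± 80.8 in stage 10. The ratio of actin signals at the 3' and 5' ends, which reflects RNA integrity, was 3.78 to 4.36 at silique stage 3 and 2.02 to 2.3 at seed stage 10, and the 25S ribosomal RNA control read over 1000 on 6 seed arrays. The part of these measures in the results was not tested. In such mixed tissue, fewer cells of a type and less RNA per cell cannot be told apart.

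Between siliques stage 3 and seeds stage 10 all 9 genes reached the top of the array's range: on the seeds stage 10 arrays each stood at the 99th percentile of signals or above, whereas in siliques stage 3 AT3G17520, AT4G21020 and AT5G44310 stood below the 5th and AT3G02480 at the 51.7th to 55th. Over the 8 groups their means spanned a median of 9.00 on the log2 scale (8.01 to 10.50), where the median over all 16967 tested probe sets was 1.47. Signals were used here as log2(signal + 6.97), an offset near the background that understates the change of low genes. All 9 probe sets were above the 40th percentile of their array on at least 3 arrays and so were tested, but AT3G53040 was so on 12 of the 24 arrays and AT2G42560 on 14, those of the later stages. The moderated F test of limma over the 8 groups passed for 9 of the 9 genes, with adjusted p of at most 4.6e-26, and for 94.9% of all tested probe sets, so that passing says little about these genes.

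**Figure D1:**
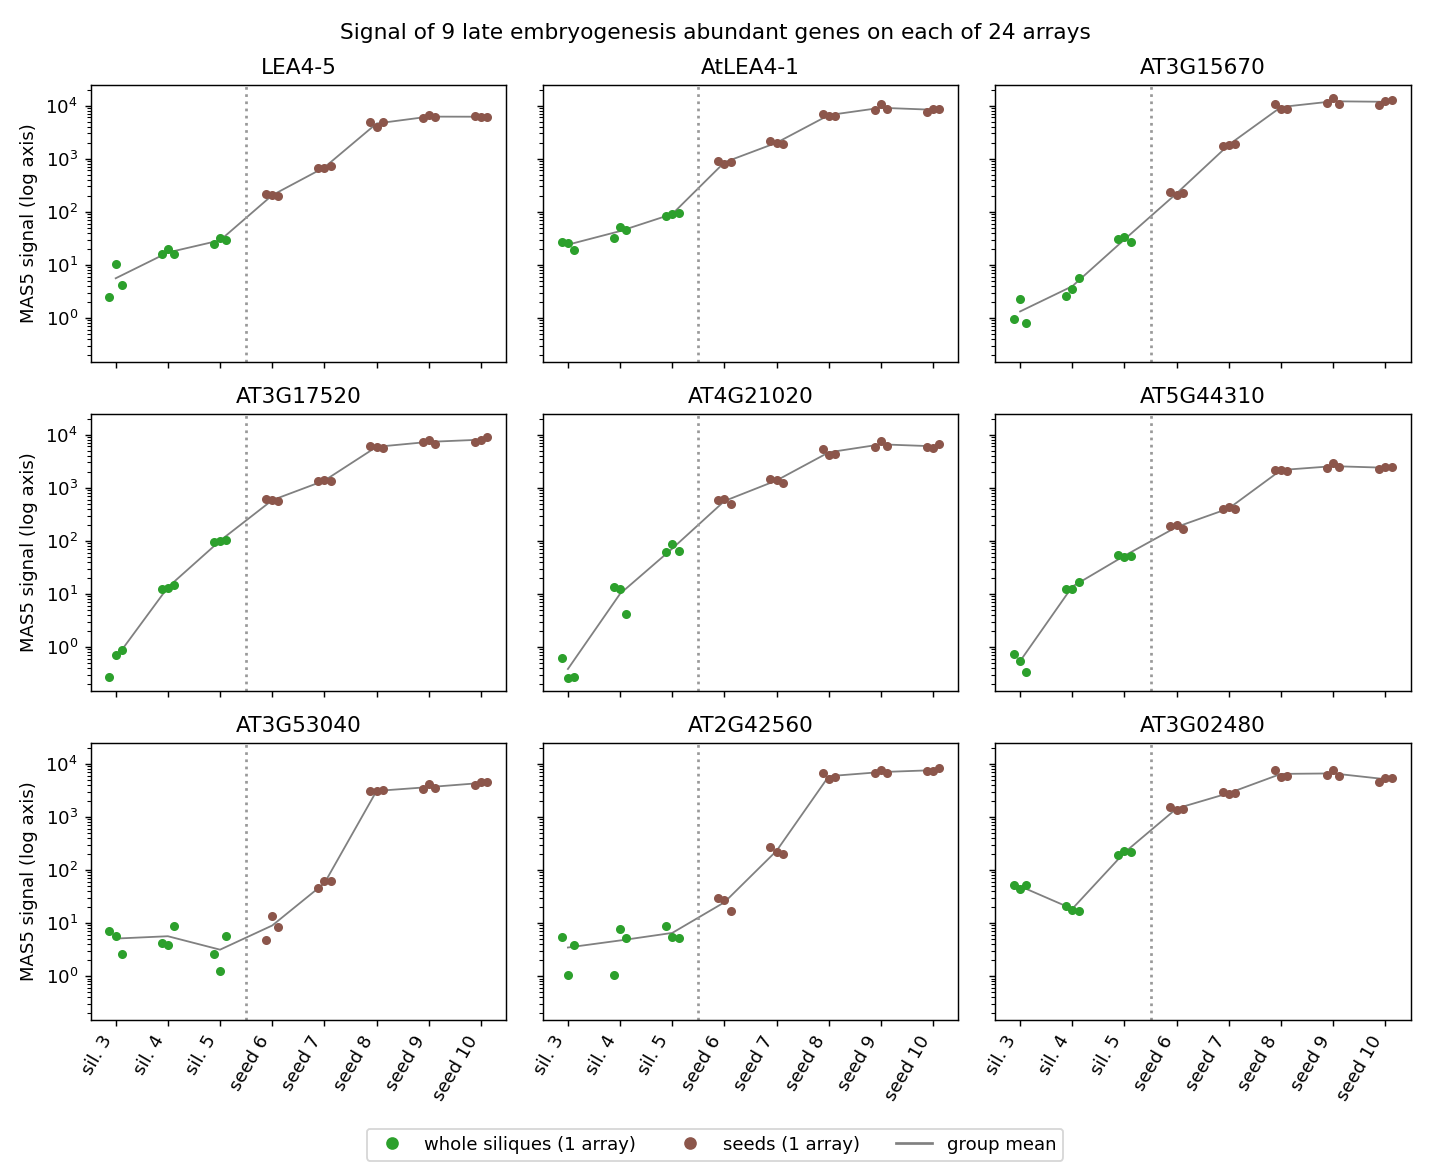
Signal of each of the 9 genes on every array (log axis), with green points for whole siliques stages 3 to 5, brown points for seeds stages 6 to 10 and a grey line through the group means. In seeds stage 8 the group means stood at 70.7% to 98% of each gene's highest, and AT3G53040 and AT2G42560 stayed under 10 on all silique arrays.

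The order of the rise was read within each gene, as the percent of its own highest group mean, since signals of different probe sets cannot be set against each other. All 9 genes first passed 50% of their highest mean in seeds stage 8. With quantile normalization AT3G02480 passed it in stage 7, since it changed by only 0.58 on the log2 scale in stage 8 against 7. Its change in stage 9 against 8 was then -0.22. The genes differed in when they first passed 10%. AT3G02480 did so in seeds stage 6, 6 genes in seeds stage 7, and AT3G53040 and AT2G42560 in seeds stage 8. AtLEA4-1 was just short of 10% in seeds stage 6, at 9.38%. With quantile normalization 3 genes, in place of 6, first passed 10% in seeds stage 7, and leaving out any 1 array gave 5 to 6. In that stage AT3G02480 stood at 42.5% ± 1.39 (SD, n = 3), AtLEA4-1 at 22% ± 1.24 and AT4G21020 at 20.9% ± 1.69. Next in that stage came AT3G17520 at 16.9% ± 0.413, AT5G44310 at 16% ± 0.627, AT3G15670 at 15.2% ± 0.541 and LEA4-5 at 11.1% ± 0.426, followed by AT2G42560 at 3.04% ± 0.525 and AT3G53040 at 1.29% ± 0.212. The arrays of AtLEA4-1 (20.8% to 23.3%) and AT4G21020 (19% to 22.1%) overlapped, as did those of AT3G17520 (16.6% to 17.4%) and AT5G44310 (15.6% to 16.7%), and of AT5G44310 and AT3G15670 (14.6% to 15.7%), so those neighbours have no order. AT3G02480 lay above and AT2G42560 and AT3G53040 lay below the arrays of every other gene of the set at this stage, and these differences between genes were not tested. The SDs and overlaps take each highest mean as fixed. In the group of the highest mean the SD was itself 6.56% (LEA4-5) to 15.4% (AT3G15670) of that mean. The order of genes with close percents is therefore less certain than these SDs show.

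**Figure D2:**
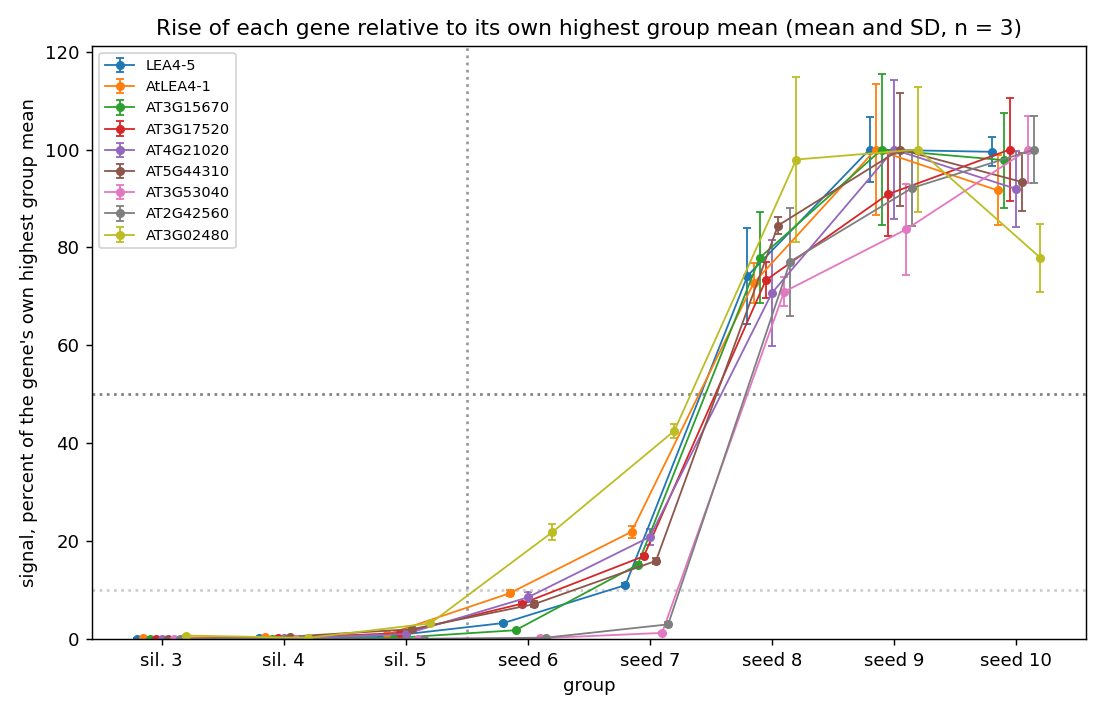
Mean and SD (n = 3 arrays) of each gene as a percent of its own highest group mean (linear axis) over the 8 groups, with dotted lines at 10% and 50%. All 9 genes cross 50% between seeds stages 7 and 8; AT3G02480 is ahead in seeds stages 6 and 7, and AT3G53040 and AT2G42560 are last.

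Among the 7 LEA_4 genes, AT3G17520, AT4G21020 and AT5G44310 were called higher earliest, in siliques stage 4 against 3. By the percent of its own highest mean AT3G02480 was ahead of them, as given above. Arrays are listed in the order of their title letters. AT3G17520 read 0.276, 0.700 and 0.869 in siliques stage 3, 12.5, 12.8 and 14.8 in stage 4 and 95.9, 101 and 105 in stage 5. No array of 1 stage overlapped with those of the next. In seeds it read 621, 579 and 554 in stage 6, 1337, 1403 and 1359.8 in stage 7 and 6227, 5874 and 5637 in stage 8, and then 7391, 7977 and 6614 in stage 9 and 7287, 7941 and 8962 in stage 10. The seed groups were again apart up to stage 9, and stages 9 and 10 overlapped. Its log2 change was 1.42 ± 0.08 (SE) in siliques stage 4 against 3, 2.41 ± 0.08 in stage 5 against 4 and 2.46 ± 0.08 in seeds stage 6 against siliques stage 5.

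AT4G21020 followed almost the same course, and the 8 group means of both genes on the log2 scale correlated at 0.999. It read 0.63, 0.258 and 0.27 in siliques stage 3, 13.8, 12.3 and 4.2 in stage 4 and 62.1, 88.6 and 64 in stage 5, then 596, 608 and 486 in seeds stage 6 and 1458, 1422 and 1249 in stage 7. One stage 4 array, F, was well under the others. AT4G21020 rose by 1.16 ± 0.17 on the log2 scale in siliques stage 4 against 3, by 2.24 ± 0.17 in stage 5 against 4 and by 2.87 ± 0.17 in seeds stage 6, its largest step. The first of these changes was just short of 2-fold and not called without siliques stage 4 replicate D. In the late seeds the gene read 5482, 4236 and 4254 in stage 8, 5984, 7662 and 6117 in stage 9 and 5889.6, 5658 and 6630.4 in stage 10, the last 2 groups overlapping.

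AT5G44310 likewise rose over the siliques. Its signals were 0.748, 0.536 and 0.345 in siliques stage 3, 12.5, 12.2 and 16.5 in stage 4 and 54.2, 50.1 and 52.8 in stage 5. Seeds gave 187, 196 and 165 in stage 6, 399, 428 and 400.3 in stage 7 and 2195, 2173 and 2112 in stage 8. All 6 of these groups were apart from one another. The steepest step was seeds stage 8 against 7, at 2.38 ± 0.09 on the log2 scale, and the shallowest of those called was seeds stage 7 against 6, at 1.13 ± 0.09.

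These calls in young siliques rest on signals of low rank. With an offset 4 times larger, the changes of AT3G17520, AT4G21020 and AT5G44310 in siliques stage 4 against 3 were 0.53, 0.42 and 0.55, and none was called. On the stage 3 arrays each of the 3 genes lay under the 5th percentile of the probe sets. On the stage 4 arrays they lay at the 14th to 33.7th, under the 40th percentile used as the filter. The later rises of AT3G17520 and AT4G21020, from siliques stage 5 onwards, were called with that offset too, while that of AT5G44310 in siliques stage 5 against 4 was 0.95 and not called.

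AT3G15670 was first called higher in siliques stage 5 against 4, as was AT3G02480, and had the widest span of group means of the set. It read 0.939, 2.24 and 0.799 in siliques stage 3, 2.54, 3.55 and 5.79 in stage 4 and 30.5, 33.1 and 26.8 in stage 5. The change in siliques stage 4 against 3 was 0.39 ± 0.11 and not called (1.65 and called with no offset), although the arrays did not overlap, and in stage 5 against 4 the gene rose by 1.77 ± 0.11 (with the offset multiplied by 4 it was 0.87, short of a call). Seeds read 231, 211 and 225 in stage 6 and 1769, 1836 and 1899.6 in stage 7. Its steepest step was therefore seeds stage 7 against 6, at 3.01 ± 0.11 (SE), where the median of the 9 genes was 1.28. In stage 8 the arrays read 10702, 8713 and 8808, in stage 9 11037, 14223 and 10970.4 and in stage 10 10463, 12481 and 12504, with stages 9 and 10 overlapping.

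AT3G53040 and AT2G42560, both LEA_4 genes, were the last to pass 10% of their highest mean and had the steepest single steps. AT3G53040 read 7.01, 5.64 and 2.64 in siliques stage 3, 4.17, 3.89 and 8.87 in stage 4 and 2.59, 1.25 and 5.61 in stage 5, and 4.71, 13.8 and 8.44 in seeds stage 6. All 12 values were low, and no neighbouring groups of these 4 were apart. The gene read 45.6, 61.9 and 61.3 in seeds stage 7 and 3012, 3005 and 3232 in stage 8. It rose by 2.02 ± 0.18 (SE) on the log2 scale in seeds stage 7 against 6 and by 5.62 ± 0.18 in stage 8 against 7. Signals were 3357, 4098 and 3456 in stage 9 and 4001, 4548 and 4489 in stage 10, overlapping, and the highest group mean was in stage 10.

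AT2G42560 had a similar course. Its signals were 5.47, 1.04 and 3.87 in siliques stage 3, 1.06, 7.79 and 5.24 in stage 4 and 8.9, 5.42 and 5.22 in stage 5, and these 3 groups overlapped with their neighbours. In seeds stage 6 it read 29.2, 27.6 and 17.1 and in stage 7 275, 214 and 201. It was called in seeds stage 6 against siliques stage 5, at 1.21 ± 0.19, but that change was 0.60, short of a call, once the offset was multiplied by 4. With no offset AT3G53040 was called at that step as well, at 1.64, and the difference between both genes was not tested. The following steps were 2.92 ± 0.19 in seeds stage 7 against 6 and 4.63 ± 0.19 in stage 8 against 7. On the stage 8 arrays it read 6758, 5120.0 and 5652, in stage 9 6705, 7661 and 6582 and in stage 10 7239, 7316 and 8172, with overlap between each neighbouring pair.

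AT3G02480 was the gene of the set that fell before it rose. It read 20.8, 17.7 and 17.1 in siliques stage 4, against 52, 44.7 and 51.5 in stage 3, without overlap, and fell by 1.15 ± 0.10 (SE) on the log2 scale. Multiplying the offset by 4 gave -0.74, short of a call. In stage 5 the arrays read 193, 225 and 219, a rise of 3.11 ± 0.10 over stage 4 and the largest of the 9 genes at that step. Seeds read 1565, 1371 and 1379 in stage 6, 2906, 2738 and 2758 in stage 7 and 7715, 5685 and 5950.0 in stage 8. The change in seeds stage 7 against 6, at 0.96 ± 0.10, fell just short of 2-fold although all 3 arrays were higher; it was 1.02 and called without seeds stage 6 replicate A, and 1.14 and called with quantile normalization. In stage 8 against 7 it rose by 1.19 ± 0.10, the least of the set, and by quantile normalization this was 0.58 and not called.

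The same gene was the one with lower arrays at the end of the series. It read 4614, 5287 and 5488 in seeds stage 10, against 6203, 7548 and 6001 in stage 9, with no overlap. The difference was -0.36 ± 0.10 (SE) on the log2 scale with adjusted p = 0.016 by limma, under 2-fold and so not called. The group mean in stage 10 was 77.9% ± 6.95 of its highest, in stage 9.

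The group 4 genes AtLEA4-1 and LEA4-5 rose over the siliques as a whole, while neither single silique step was called, some by a narrow margin. AtLEA4-1 read 27.3, 26 and 18.8 in siliques stage 3, 31.7, 52.3 and 45.9 in stage 4 and 84.7, 91.4 and 96 in stage 5, apart at each step. Over both steps together it rose by 1.66 ± 0.12 (SE) on the log2 scale. The single steps were 0.69 ± 0.12 and 0.98 ± 0.12, and the second reached a call at 1.11 without siliques stage 4 replicate E, 1.03 without stage 4 replicate F and 1.02 without stage 5 replicate D. It was also called with no offset (1.10), with quantile normalization (1.03) and with arrays centred on reference genes (1.01) or on the 75th percentile. In seeds stage 6 it read 897, 796 and 872, a change of 3.14 ± 0.12 and the largest of the 9 genes at the change of material. It then read 2119.8, 1989 and 1895 in stage 7, 7051, 6385 and 6453 in stage 8, 8311, 10513 and 8523 in stage 9 and 7611, 8804 and 8655 in stage 10. The last 2 groups overlapped.

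LEA4-5 trailed AtLEA4-1. It read 2.43, 10.2 and 4.18 in siliques stage 3, 15.8, 19.8 and 15.7 in stage 4 and 25.3, 31.7 and 29.9 in stage 5, a rise of 1.56 ± 0.14 (SE) in stage 5 against 3 that was 0.77, short of a call, with the offset multiplied by 4. The change in stage 4 against 3 alone was 0.98 ± 0.14, and it passed a call at 1.23 without siliques stage 3 replicate B and at 1.02 without stage 4 replicate D or F, as well as at 1.86 with no offset and at 1.05 with quantile normalization. The change of AT4G21020 at that step was 1.16 ± 0.17, and the difference between these genes was not tested. Seeds read 214, 207 and 195 in stage 6 and 672, 669.7 and 717 in stage 7. In stage 8 they read 4966, 3906 and 4951, a step of 2.73 ± 0.14 and its largest. Stage 9 read 5881, 6665 and 6084 and stage 10 6388, 6041 and 6115. In seeds stage 6 LEA4-5 had reached 3.31% ± 0.153 of its highest mean and AtLEA4-1 9.38% ± 0.576.

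Set against all probe sets, the 9 genes moved together at some steps and not at others. In siliques stage 4 against 3, 3 of 9 were called higher and 1 lower, where 9.4% of tested probe sets were called higher and 9.46% lower. The 3 arrays of stage 4 lay above those of stage 3 for 6 of the 9 and 32.8% of all. In siliques stage 5 against 4, 5 of 9 rose and 4 were not called, with 1.89% of all higher and 1.44% lower, and 7 of the 9 had no overlap, as had 18.7% of all in that direction. In stage 5 against 3, 7 of 9 rose, with 10.4% of all higher and 10.9% lower, and the same number lay wholly above, with 34.3% of all. In seeds stage 6 against siliques stage 5, 8 of 9 were higher, by a median of 2.57 on the log2 scale, with 4.07% of all higher and 7.56% lower. The seed arrays lay wholly above for 8 of the 9 and 34.1% of all. AT3G53040, at 0.64 ± 0.18, was not called and its arrays overlapped, though with no offset its change was 1.64 and called. Here the later stage and the loss of the wall tissue cannot be told apart.

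Within the isolated seeds, 8 of 9 rose in stage 7 against 6 (all probe sets: 2.43% higher, 1.07% lower), by a median of 1.28 for the 9 genes and -0.05 for all tested probe sets. In stage 8 against 7, 9 of 9 rose (all probe sets: 8.06% higher, 11.2% lower), by a median of 2.35, where the median of all was -0.02. In stage 10 against 6, 9 of 9 rose (all probe sets: 14.1% higher, 19.7% lower), by 1.83 for AT3G02480 to 8.13 for AT3G53040, with a median of 3.77; this comparison shares its arrays with the single steps. With quantile normalization the medians of the 9 genes in these 3 comparisons were 1.29, 1.83 and 3.38. In each of the 3 the later arrays lay wholly above for 9 of 9, and for 18.4%, 29.1% and 36% of all probe sets in the same order. The genes had been chosen with earlier results of these arrays known, so the counts describe them and are no independent evidence of their direction.

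**Figure D3:**
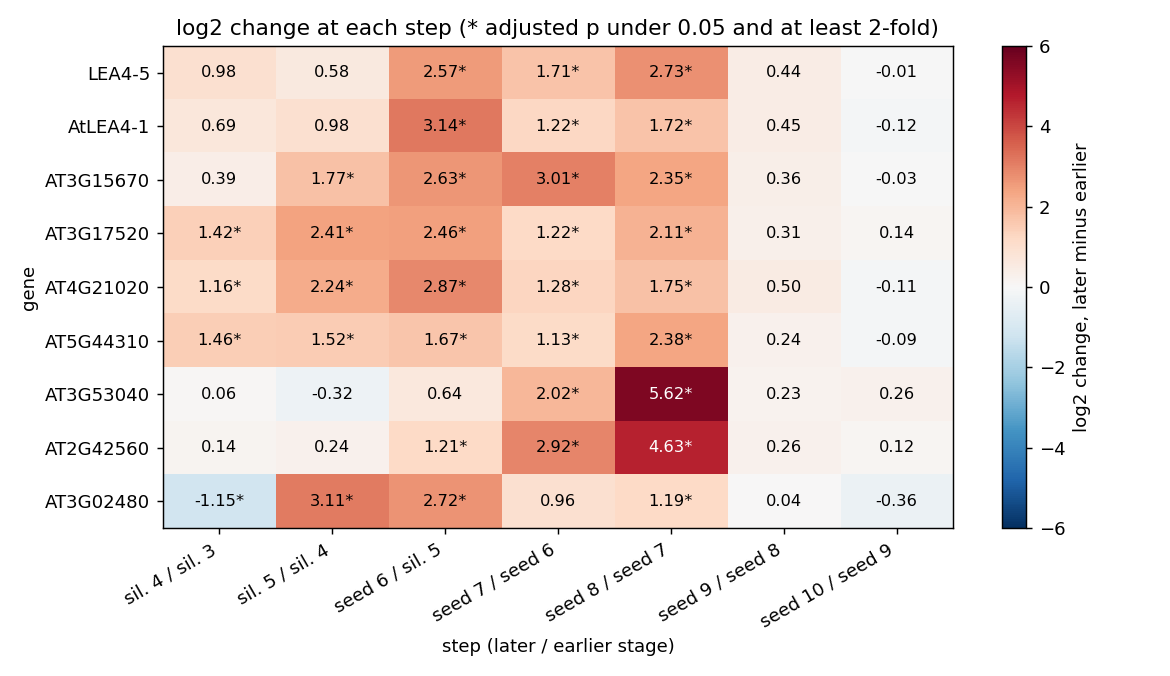
The log2 change of each gene (rows) at each of the 7 consecutive steps (columns, later over earlier stage), with an asterisk where the adjusted p was under 0.05 and the change at least 2-fold. Seeds stage 8 against 7 is called for all 9 genes, from 1.19 to 5.62, and the last 2 steps for none.

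After seeds stage 8 the steps were under 2-fold. In seeds stage 9 against 8 no gene was called by limma, with changes of 0.04 to 0.50 on the log2 scale (all probe sets: 1.06% called higher, 2.61% lower). An unadjusted p under 0.05 was found for 6 genes and an adjusted one for the same number. The share of all probe sets passing on p alone, without the 2-fold limit, was not counted. For 7 of the 9 the 3 arrays of stage 9 lay above those of stage 8, as for 16.6% of all probe sets. This small rise depended on the scaling. The median change of the 9 genes was 0.31, but 0.05 with quantile normalization. Centring on reference genes gave 0.24 and centring on the 75th percentile 0.36. In stage 10 against 9 again none was called, with -0.36 to 0.26 (all probe sets: 0.778% higher and 0.937% lower, 15.2% with arrays wholly above), and 1 gene, AT3G02480, had an unadjusted p under 0.05. The highest group mean was in seeds stage 10 for AT3G17520, AT3G53040 and AT2G42560 and in stage 9 for the other 6. The group mean was above the preceding one at each of the 4 seed steps for those 3 genes, and for 8.37% of all probe sets. For 21.2% of all tested probe sets the highest group mean was in seeds stage 10.

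The order of stages 9 and 10 rests partly on 1 array. Seeds stage 9 replicate B had the highest signal of its group for 9 of the 9 genes, by a median deviation of 0.18 on the log2 scale from the group mean, and the 10 brightest probe sets held 3.91% of its summed signal, against 3.18% and 3.2% on the other stage 9 arrays. Seeds stage 8 replicate A was likewise highest for 8 of the 9. Without stage 9 replicate B the difference of stage 10 to stage 9 was 0.10 for AT3G15670, in place of -0.03, and 0.05 for LEA4-5, whose reported difference rounds to 0. The part of a general brightness of that array in these values was not tested.

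Relatives of the 9 genes, listed by family, took several courses. LEA18, the third group 4 gene of Arabidopsis, had a mean of 19.4 ± 5.22 (SD, n = 3) at silique stage 5, 174 ± 7.44 at seed stage 7 and 3041 ± 207 at stage 8, with a step of 4.08 ± 0.15 (SE) in seeds stage 8 against 7. It was also called in siliques stage 4 against 3, at 1.06 ± 0.15. Of 8 other genes of the LEA_4 family 4 were tested, and in seeds stage 10 against 6, 2 rose and 2 were not called. AT4G36600 averaged 854 ± 56 in seeds stage 10, against 5.79 ± 3.43 in stage 6, and AT2G18340 averaged 175 ± 6.06 in stage 10, against 6.49 ± 3.55 in stage 6. AT4G36600 made most of its rise in seeds stage 8 against 7, at 4.26 ± 0.17, the step at which AT3G53040 and AT2G42560 also had their largest change.

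The LEA_4 genes COR15A and COR15B, known for cold-induced proteins that protect chloroplast membranes in freezing, took another course. The mean of COR15B was 271 ± 34.7 (SD, n = 3) in siliques stage 3, 186 ± 22.9 in stage 4, 87.3 ± 17.7 in stage 5 and 16.9 ± 2.76 among the seeds of stage 6. It fell by 1.57 on the log2 scale in siliques stage 5 against 3 and by 1.97 in seeds stage 6 against siliques stage 5, and the changes of COR15A were -1.81 and -2.66. Both rose in seeds stage 7 against 6, COR15B by 1.40 ± 0.23 (SE) and COR15A by 1.06 ± 0.30. In seeds stage 10 COR15B averaged 14.9 ± 5.75 and COR15A 6.87 ± 9.06.

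Of 28 genes of other LEA families 15 were tested, and in seeds stage 10 against 6, 9 rose, 3 fell and 3 were not called, by a median of 1.67, beside 0.02 for all tested probe sets. The LEA gene M10 rose by 9.55 ± 0.09 (SE), AT2G23110 by 7.56 ± 0.13, AT3G22490 by 7.31 ± 0.19 and AT4G39130 by 5.89 ± 0.20. All 4 had their largest change in seeds stage 8 against 7, at 5.24, 5.01, 4.92 and 4.58. In siliques stage 5 against 3, 3 of the 15 rose, 3 fell and 9 were not called, these 4 among the last. The dehydrin gene LEA (AT2G21490) rose there by 4.14 ± 0.09 and in seeds stage 6 against siliques stage 5 by 3.04 ± 0.09; the 9 genes reached at most 3.83 and 3.14. The 3 that fell in seeds stage 10 against 6 were COR47, a cold-regulated dehydrin, with a change of -2.24 ± 0.07, AT4G38410 with -2.06 ± 0.13 and AT2G44060 with -2.01 ± 0.10.

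**Figure D4:**
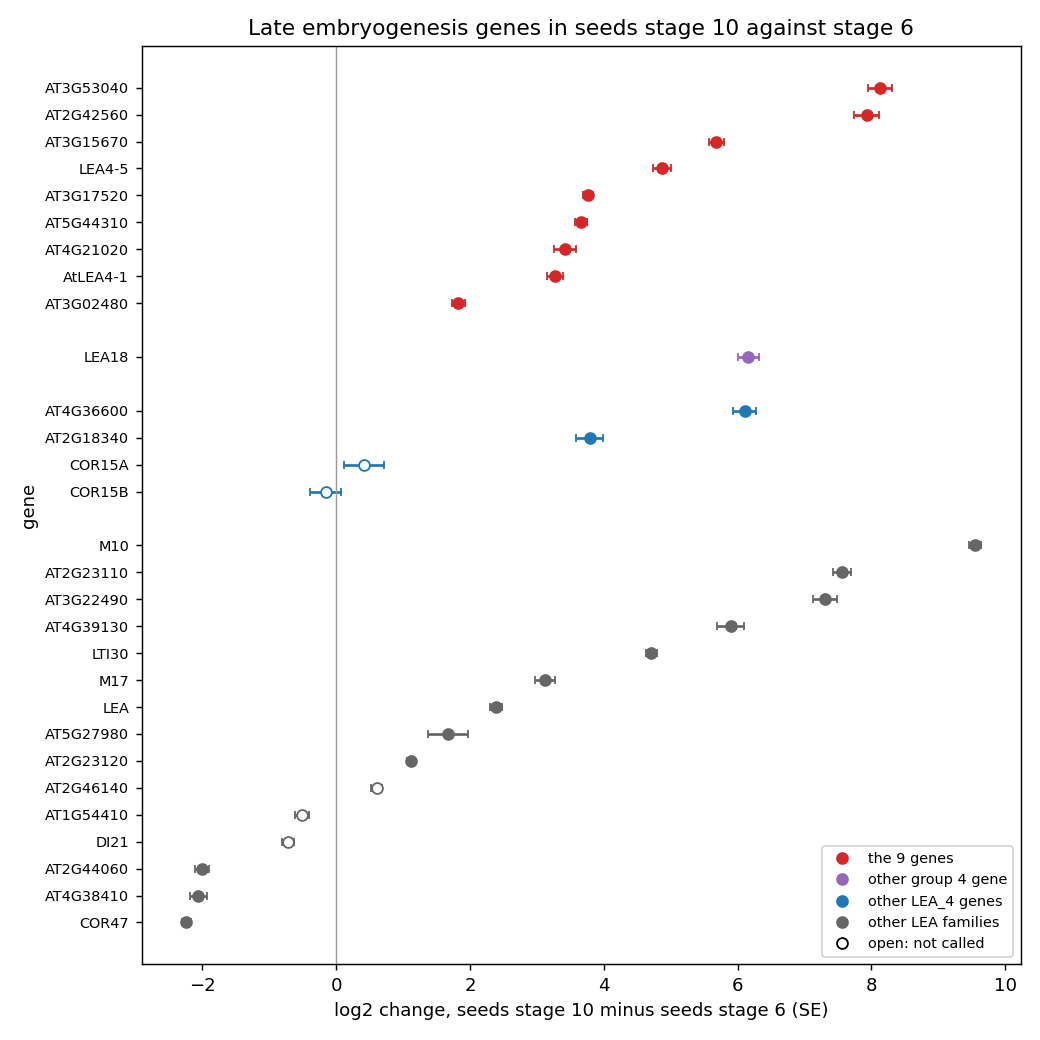
The log2 change of each tested LEA gene in seeds stage 10 minus stage 6, with SE, for the 9 genes (red), another group 4 gene (purple), other LEA_4 genes (blue) and other LEA families (grey); open points were not called. The 9 genes lie between 1.83 and 8.13, COR15A and COR15B near 0, and COR47 at -2.24.

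Of 12 seed maturation regulators 2 could be tested. EEL, a bZIP factor known to bind the promoters of LEA genes of another family, averaged 9.96 ± 4.99 (SD, n = 3) in siliques stage 3, 103 ± 11.4 in stage 4, 259 ± 8.04 in stage 5, 699.8 ± 18.5 in seeds stage 6 and 1739 ± 145 in stage 8. It was called higher at both silique steps, as AT3G17520, AT4G21020 and AT5G44310 were, and averaged 1204 ± 33.2 in seeds stage 10. BZIP53, a bZIP factor that activates seed maturation genes as a heterodimer, had means of 319.5 ± 14.9 at silique stage 3, 459.6 ± 83.6 at seed stage 6 and 1029 ± 20.1 at stage 10. It was called higher in seeds stage 10 against 6, at 1.17 ± 0.09 (SE), and at no single step. A list of 8 genes for other protection against drying was not analysed here.

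The 9 courses were alike to different degrees. Over the 8 group means on the log2 scale, AT3G17520 and AT5G44310 correlated at 0.996, LEA4-5 and AT3G15670 at 0.995 and AtLEA4-1 and AT4G21020 at 0.994. The lowest value was that of AT3G53040 and AT3G02480, at 0.808. All values share the same arrays and the same rise over stages, so they are a description. Among 2824 other single-gene probe sets whose means spanned at least 2 on the log2 scale, the 3 closest to each gene gave 25 different genes, at r of 0.991 to 0.999 over 8 groups.

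Closest to AT3G15670 were AT3G56350 (r = 0.999), AT2G27940 (r = 0.998) and the MADS-box gene AGL67 (r = 0.997), and the first of these was also among those closest to LEA4-5. LEA4-5 was closest to AT4G16146 (r = 0.998) and the glutaredoxin gene GRXC1 (r = 0.998). Those closest to AT3G17520 included AT2G21820 (r = 0.999) and ICL (r = 0.998), the gene for isocitrate lyase of the glyoxylate cycle, with group means of 0.982 at silique stage 3, 568 at seed stage 6 and 7179 in stage 10. For AT5G44310 they were AT3G15260 (r = 0.998), AT5G64230 (r = 0.998) and AT2G25890 (r = 0.998). AT4G21020 was closest to AT3G58060 (r = 0.998) and AtLEA4-1 to AT1G27990 (r = 0.998), and both had AT2G33520 among their 3.

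The late genes AT2G42560 and AT3G53040, and the early AT3G02480, had other neighbours. AT2G42560 was closest to AT3G58450 (r = 0.999), AT3G05260 (r = 0.999) and AT5G42290 (r = 0.999), of which AT3G05260 averaged 42.5 in seeds stage 6 and 6745 in stage 8. AT3G53040 was closest to AT1G23640 (r = 0.997), a gene that averaged only 26 in seeds stage 8. AT3G02480, with its dip in siliques stage 4, had the least similar neighbours, AT1G14950 (r = 0.995), AT5G64190 (r = 0.993) and AT3G54510 (r = 0.991). None of the 25 genes was in more than 2 of the 9 sets of 3.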

How the data were processed

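Total RNA of 24 samples was hybridized to 1 array each. The deposited values are MAS5 signal intensities per probe set, per the submitters' processing notes, which name the tool but no version. A linear scale was assumed from the tool. The authors' scaling shows in the trimmed mean of each array (99.959 to 99.97), so every value is relative to the rest of its array. No detection calls were used. Precision is limited by having 3 arrays a group.

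Groups followed the tissue label. Of 22810 probe sets, 64 controls were left out and the 16967 above the 40th percentile of their array on 3 or more arrays were tested, as log2(signal + 6.97), with 6.97 taken from the arrays' 20th percentiles (their median). limma 3.58.1 (R 4.3.3) fitted 1 mean per group over all arrays, with a trended eBayes and 16 residual degrees of freedom. A call needs a Benjamini-Hochberg adjusted p under 0.05 and a change of at least 2-fold, and "rose" and "fell" refer to calls. The fit was tested on simulated data. The genes, lists and tests were chosen with earlier results of these data known. Beside the 9 genes, the rule names the 3 single-gene probe sets that correlate best with each over the group means, and up to 4 genes per list by their change in seeds stage 10 against 6. COR47, LEA, AT4G38410, AT2G44060, ALC, YAB3 and OLEO3 were named after their values were seen. Of 9 published reference genes tested, none was called in that comparison. Alternatives were 2 other offsets, no filter, 3 other normalizations, no variance trend, a fit on the compared groups alone, the title letter as a block, and leaving out arrays. Sequences were not used here.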

Additional observations from a re-analysis of the deposited data

How the results depend on the processing

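Counts of the 9 genes called higher in 9 comparisons, of those passing the F test and of those first at 10% and 50% of their highest mean kept within 1.5 times in 229 of 233 recomputed values. The exceptions came from the offset and the scaling. With an offset 4 times larger 0 of the 9 genes instead of 3 were called higher in siliques stage 4 against 3, and 3 instead of 5 in siliques stage 5 against 4; with no offset 5 were called in siliques stage 4 against 3. With quantile normalization 3 genes instead of 6 first reached 10% in seeds stage 7. Within the margin of 1.5 times, AT3G02480 passed 50% in seeds stage 7 with that normalization. Leaving out any 1 array gave 7 genes in siliques stage 5 against 3, 3 to 4 in stage 4 against 3, 5 to 6 in stage 5 against 4, 8 in seeds stage 6, 8 to 9 in stage 7, 9 in stage 8 and in stage 10 against 6, and 0 in the last 2 steps. With the title letter as a replicate block the counts were 7, 2, 5, 8, 8, 9, 9, 0 and 0 in the same order. AT4G21020, at 0.99 in siliques stage 4 against 3, was the gene no longer called. Siliques stages 4 and 5 share a letter with the other groups only through the D array of seeds stage 10. In the block fit their differences from stages 3 and 6 therefore rest on that 1 array. The letters did not pair the arrays: of 16 correlations between the deviations of arrays with the same letter, from -0.053 to 0.102, 1 was over 0.1. An alternative chosen after seeing the data left out the 6 arrays with a 25S control over 1000. It kept only replicate B in seeds stage 8 and in seeds stage 10. Its counts for these stages thus rest on 1 array each, and they say little about how firm the calls are.

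Changes of sign were found among small, uncalled differences. In seeds stage 9 against 8 AT3G15670 stood at -0.03 and AT3G02480 at -0.22 with quantile normalization, and AT3G02480 at -0.03 with arrays centred on 9 reference genes. In stage 10 against 9 LEA4-5 stood at 0.07 with either of these, and AT3G15670 at 0.05, or at 0.06 without the 25S arrays. In siliques stage 4 against 3 AT3G53040 stood at -0.02 with reference genes and -0.14 with the block, and AT2G42560 at -0.21 with the block. Leaving out 1 array gave -0.12 to 0.17 for AT3G53040 and -0.05 to 0.39 for AT2G42560 in that step, 0 to 0.43 for AT2G42560 in siliques stage 5 against 4, -0.07 to 0.17 for AT3G02480 in seeds stage 9 against 8, and -0.04 to 0.05 for LEA4-5 and -0.09 to 0.10 for AT3G15670 in stage 10 against 9. Over the whole array, an offset 4 times larger called 2112 probe sets instead of 3200 in siliques stage 4 against 3, 312 instead of 564 in siliques stage 5 against 4 and 1200 instead of 1972 in seeds stage 6 against siliques stage 5. It called 332 instead of 594 in seeds stage 7 against 6, 2039 instead of 3275 in stage 8 against 7, 232 instead of 623 in stage 9 against 8 and 92 instead of 291 in stage 10 against 9. With no offset 1009 were called in seeds stage 9 against 8 and 614 in stage 10 against 9. Centring on the reference genes moved the share of higher calls in that last step to 61%, from 45.4%, and the median of all probe sets in seeds stage 8 against 7 to -0.13. The cause of these shifts was not tested. Signals near the background limit the calls in young siliques.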
